A study of Mus musculus with 22 samples.

Results

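RNA levels of 10 genes for transcription factors of the mesoderm were followed from cultured MC38 cells into the tumors these cells form. The genes were Foxf1, Foxf2 and Foxl1 of the forkhead family, Tbx20, Tbx15 and Tbx18 of the T-box family, Gata4 and Gata6 of the GATA family, and the homeobox genes Barx1 and Nkx2-3, taken from a table of 46882 genes. They were chosen by measured levels: Tbx20 and Foxf1 were high in MC38 cells and had no read in skin replicate 1. The levels of these 2 genes in MC38 cells and in skin are therefore given as a description only. MC38 is a mouse line from a chemically induced colon carcinoma. The 16 libraries came from 2 samples of MC38 cells (strain C57BL/6N, day 0), 3 tumors of wild-type C57BL/6N mice at day 23 and 3 at day 46, 3 tumors labelled RAG1-/- (strain B6.129S7-Rag1tm1Mom/J) at day 13 and 3 at day 23, and 2 samples of skin from wild-type C57BL/6N mice labelled day 23. Mice were 8 to 12 weeks old, all tumors grew from MC38 cells injected under the skin, and RAG1-/- mice lack mature T and B cells but keep other immune cells. RNA was taken from pieces of whole tumors, so tumor libraries hold RNA of host cells beside that of MC38 cells, and fewer cells of a type cannot be told apart from less RNA per cell. The labels do not say whether the 2 MC38 or the 2 skin samples came from separate cultures or animals, so the tests measure the spread between these samples, which may be technical.

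Levels are normalized counts, that is, reads per gene divided by a DESeq2 size factor of the library. The libraries were made with QuantSeq, which reads each transcript near its 3′ end, and held 5589151 to 26134241 reads on genes, and 3 reads, taken as the floor of detection, equal 1.33 to 6.38 normalized counts. This floor covers counting error only. Rag1 itself had 1 to 12 reads in the 6 tumors labelled RAG1-/- and at most 1 read in the 6 wild-type tumors. Which bases of Rag1 the mutant lacks is not given in the sources used here, so a 3′ tag cannot check these labels. Skin replicate 2 stood apart from skin replicate 1 in genes that are high in MC38 cells. Of 8434 genes with at least 100 normalized counts in both MC38 libraries, 35 had no read in skin replicate 1, and 29 of these had 3 or more reads in skin replicate 2, at a median of 5.69% of their MC38 mean. In the other direction 1 gene had no read in skin replicate 2. Skin values are therefore given library by library, and ratios to skin replicate 2 rest on these reads. Whether RNA or reads of MC38 cells or tumors were carried over into skin replicate 2 was not tested.

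As background, forkhead, T-box, GATA and homeobox proteins are DNA-binding factors that divide the embryonic mesoderm into its regions. Foxf1, Foxf2 and Foxl1 act in the mesenchyme around the gut tube, where hedgehog proteins released by the epithelium switch on Foxf1, Foxf2 and Foxl1, and Foxl1 marks a thin layer of stromal cells just under the intestinal epithelium. Tbx20 and Gata4 are known for the developing heart, Tbx18 for the epicardium, the sinus node and pericytes, and Tbx15 for the limb and facial skeleton, skeletal muscle and dermis. Barx1 and Nkx2-3 pattern the mesenchyme of the stomach and of the gut and spleen. Gata4 and Gata6 are also factors of the gut endoderm, from which the intestinal epithelium forms.

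Foxf1 (chr8:121084386-121088144, plus strand, GRCm38, the build of the files) and Foxl1 (chr8:121127940-121130644, plus strand) are neighbours, with 39796 bases between the gene bodies. Fendrr, a long non-coding RNA that takes its name from its place beside Foxf1, lies at chr8:121054882-121083110 on the minus strand and starts 1276 bases from Foxf1. Foxf2 lies at chr13:31625816-31631403 on the plus strand, Tbx20 at chr9:24718138-24774303 and Tbx18 at chr9:87702800-87731260 on the minus strand, and Tbx15 at chr3:99240381-99354259 on the plus strand. No base of the last 500 exonic bases of these 6 members, where QuantSeq reads fall, overlapped an exon of another annotated gene on either strand.

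RefSeq promoters of GRCm38.p6, which run from 250 bases before to 50 bases after a start site, were matched for 5 members (Foxf2, Tbx20, Tbx18, Barx1 and Nkx2-3) and for Fendrr. Those of Tbx20 and Foxf2 are shown because both genes were read in all MC38 and tumor libraries and had no read in skin replicate 1, and that of Fendrr because it was the one of the 6 with a motif match. Capitals mark the match and all other bases are in lower case.
Tbx20 (chr9:24774254-24774553, minus strand): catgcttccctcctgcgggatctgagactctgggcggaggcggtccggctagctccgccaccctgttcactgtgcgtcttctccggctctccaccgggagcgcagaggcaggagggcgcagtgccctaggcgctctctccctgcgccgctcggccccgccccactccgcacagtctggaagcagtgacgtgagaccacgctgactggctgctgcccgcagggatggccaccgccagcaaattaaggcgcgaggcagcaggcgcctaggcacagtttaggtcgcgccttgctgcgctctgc
Foxf2 (chr13:31625566-31625865, plus strand): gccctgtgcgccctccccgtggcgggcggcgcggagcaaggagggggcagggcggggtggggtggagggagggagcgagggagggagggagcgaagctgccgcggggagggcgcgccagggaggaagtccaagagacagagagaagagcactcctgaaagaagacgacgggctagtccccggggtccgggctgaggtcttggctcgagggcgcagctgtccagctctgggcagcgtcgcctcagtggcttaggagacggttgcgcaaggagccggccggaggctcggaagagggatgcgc
Fendrr (chr8:121083061-121083360, minus strand): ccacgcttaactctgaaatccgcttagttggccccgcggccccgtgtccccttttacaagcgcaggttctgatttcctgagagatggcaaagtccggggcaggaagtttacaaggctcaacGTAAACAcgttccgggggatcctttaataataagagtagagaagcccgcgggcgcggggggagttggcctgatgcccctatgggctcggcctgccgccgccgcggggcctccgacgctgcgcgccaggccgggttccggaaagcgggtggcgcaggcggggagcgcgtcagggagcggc
Both strands were searched for 4 motifs, none of which lies within another. The forkhead motif was spelled GTAAACA. For T-box factors the letters were AGGTGTGA. For factors of the GATA family they were AGATAA. For the factors at the end of the hedgehog pathway, the GLI proteins, they were GACCACCCA. The forkhead letters stood 129 bases before the start of Fendrr and in 3.65% of 32851 promoters of this length. The shares for the T-box, GATA and GLI letters were 1.28%, 11.2% and 0.253%, and none of them was found in the 6 promoters. The GC content was 68.3% for Tbx20, 71.3% for Foxf2, 64.7% for Fendrr and 51.7% for Tbx18, against a median of 52.7% over all promoters.

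Of the 10 genes, 6 had reads in all 14 MC38 and tumor libraries, namely Foxf1, Foxf2, Foxl1, Tbx20, Tbx15 and Tbx18. The other 4, Gata4, Gata6, Barx1 and Nkx2-3, were at or near the floor in MC38 cells and tumors.

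Tbx20, a T-box factor of the heart, had 616 and 706 normalized counts in the MC38 libraries. In wild-type tumors it had 605, 466 and 563 at day 23 and 475, 461 and 391 at day 46. In tumors labelled RAG1-/- it had 579, 484 and 449 at day 13 and 757, 443 and 387 at day 23. Of the 12 tumors, 11 lay below both MC38 libraries, and 1 tumor labelled RAG1-/- at day 23 lay above both. Skin had no read in replicate 1 and 30.6 normalized counts in replicate 2, which is 4.63% of the MC38 mean, so the lowest tumor was still 12.6-fold above it. Against the floor of skin replicate 1 the MC38 mean was at least 164-fold higher.

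Foxf1, the forkhead factor of the splanchnic mesoderm, had 274 and 323 normalized counts in MC38 cells. The wild-type tumors had 337, 283 and 355 at day 23 and 256, 180 and 287 at day 46, and the tumors labelled RAG1-/- had 417, 304 and 293 at day 13 and 296, 343 and 253 at day 23. The tumors surrounded the MC38 values, with 4 above both, 3 below both and 5 between. Skin replicate 1 had no read and replicate 2 had 34.4, or 11.5% of the MC38 mean. The lowest tumor was 5.23-fold above skin replicate 2, and the MC38 mean was at least 74.2-fold above the floor of replicate 1.

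Foxf2, the close relative of Foxf1 in gut mesenchyme, was read at 27.4 and 38.1 in MC38 cells. Its tumors spread widely, from 12.6 to 73.4 with a median of 34.0, and the 3 tumors labelled RAG1-/- at day 13 (51.3, 73.4 and 48.6) held 3 of the 4 highest values. Skin had 0 and 2.55, that is, 2 reads in all. Foxl1, the marker of subepithelial stroma, had 141 and 98.7 in MC38 cells and ranged from 34.2 to 151 over the tumors, with 8 of 12 tumors below both MC38 libraries. Skin had 0 and 8.92. The spread between tumors was 47.5% of the mean for Foxf2 and 44.9% for Foxl1 (SD, n = 12), against 19.8% for Foxf1 and 20.8% for Tbx20.

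Tbx18 was the steadiest of the 6, with 174 and 162 normalized counts in MC38 cells and 126 to 192 over the 12 tumors, a spread of 13.9% of the mean. Skin had 56.3 and 73.9, below every tumor. Tbx15 had 299 and 239 in MC38 cells, 173 to 551 over the tumors (median 320), and 162 and 251 in skin. It was the only one of the 6 whose skin libraries overlapped the tumors. Skin replicates 1 and 2 had 60.3% and 93.4% of the MC38 mean for Tbx15 and 33.5% and 44.0% for Tbx18.

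Gata6, a factor of endoderm and heart that is also known from the ducts of sebaceous glands, ran the other way. It had 363 and 398 normalized counts in skin, from 271 and 312 reads, and no read in either MC38 library, so that the skin mean was at least 130-fold above the MC38 floor. In the tumors it had reads in 7 of 12 libraries and reached at most 10.7. Gata4 had no read in any of the 16 libraries, which at these depths allows a level of up to 1.33 to 6.38 normalized counts. Barx1 was seen with 2 reads in 1 tumor labelled RAG1-/- at day 13 and 2 reads in 1 wild-type tumor at day 23, and Nkx2-3 with 2 reads in MC38 replicate 1 and 5 reads in the deepest library, a tumor labelled RAG1-/- at day 23. Neither had a read in skin. A difference between groups was not detectable at this depth for Gata4, Barx1 and Nkx2-3.

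**Figure D1:**
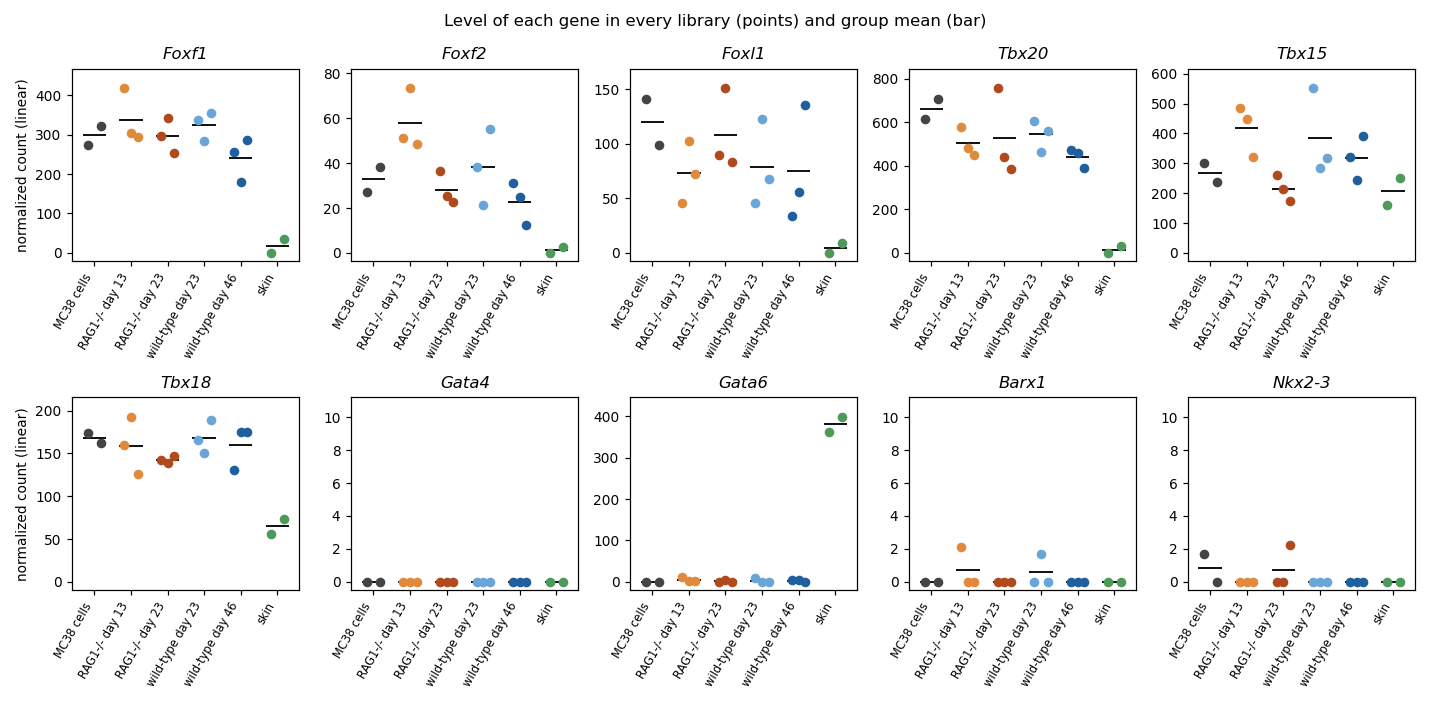
Normalized count (linear axis, own scale per gene) of each of the 10 genes in every library, with points for libraries and bars for group means (n = 2 for MC38 cells and skin, n = 3 for each tumor group). Foxf1, Foxf2, Foxl1 and Tbx20 are read in all 14 MC38 and tumor libraries and lie at 0 in skin replicate 1, Gata6 lies at 363 and 398 in skin and at most 10.7 elsewhere, and Gata4 stays at 0.

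The question for the tumors was whether a host with or without mature T and B cells, or a later time point, moved these genes. Tests used limma on log2(normalized count + 1) for genes whose mean over the fitted libraries was 5 normalized counts or more, with Benjamini-Hochberg adjustment over all genes tested and a threshold of 0.05. Folds on this scale understate the change of low genes. Of the 10 members, 6 passed the filter among 14746 genes in the fit of the 12 tumors.

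At day 23, none of the 6 was called when wild-type tumors were set against those labelled RAG1-/-, where 0.278% of all genes were called. With unadjusted p under 0.05, there was 1 member, Tbx15, against 1646 genes in all, and edgeR and DESeq2 called 0 members. Tbx15 had 551, 286 and 318 normalized counts in the wild-type tumors and 261, 213 and 173 in those labelled RAG1-/-, with no overlap. Its log2 difference was 0.79 (SE 0.27, limma adjusted p = 0.268), with a 95% interval from 0.22 to 1.36. Tbx18 did not overlap either, at 165, 151 and 189 against 143, 138 and 147, with a log2 difference of 0.23 (SE 0.22, limma adjusted p = 0.747). With 3 tumors against 3 the exact permutation test cannot go below p = 0.1, which both genes reached, and 16.1% of all genes had groups that did not overlap. The other 4 differed by -0.52 (Foxl1) to 0.36 (Foxf2) on the log2 scale.

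Over both time points each host gave 6 tumors. They came from day 23 and day 46 in wild-type mice, and from day 13 and day 23 in those labelled RAG1-/-. This comparison therefore mixes host with tumor age and cannot separate them. The 6 members differed by between -0.50 (Foxf2) and 0.20 (Tbx15) on the log2 scale, with a median of -0.11. Of these members 0 were called by limma, edgeR or DESeq2, against 0.712% of all genes called by limma. None had an unadjusted p under 0.05. The exact permutation test gave 0.238 for Foxf2 and larger p for the others, unadjusted and two-sided, where 0.00216 is the smallest it can give, and 0 members had groups that did not overlap, against 0.983% of all genes. The interval of the difference was -0.38 to 0.29 for Tbx20 and -0.51 to 0.15 for Foxf1, so both intervals lay within 1 log2 unit of 0. Those of Foxf2 (-1.17 to 0.16) and Foxl1 (-1.05 to 0.40) reached beyond 1 unit below 0.

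Between day 23 and day 46 in wild-type mice all 6 members had lower means at day 46, with log2 differences from -0.71 (Foxf2) to -0.08 (Tbx18, whose sign turned under upper quartile scaling), but 0 passed the test, none had an unadjusted p under 0.05, and all 6 pairs of groups overlapped, where 12.5% of all genes had groups that did not. No gene of the 14746 was called by limma (0%) in this comparison, though the unadjusted p was under 0.05 for 1261. Foxf1 came nearest, at 337, 283 and 355 against 256, 180 and 287 (log2 difference -0.45, SE 0.22, limma adjusted p = 0.594).

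Between day 13 and day 23 in tumors labelled RAG1-/-, 0 members and 0 genes in all (0%) were called by limma, while the unadjusted p was under 0.05 for 2 members and for 1722 genes in all. The 2 were Tbx15 and Foxf2, both lower at day 23 without overlap between the groups, where 19.4% of all genes had groups that did not overlap. Tbx15 stood at 486, 449 and 322 at day 13 and 261, 213 and 173 at day 23, a log2 difference of -0.95 (SE 0.27, limma adjusted p = 0.219). DESeq2, which called 206 genes here, gave Tbx15 an adjusted p of 0.0534 and called 0 members, as did edgeR. Foxf2 stood at 51.3, 73.4 and 48.6 against 36.7, 25.5 and 22.5, a log2 difference of -1.01 (SE 0.44, limma adjusted p = 0.389). Tbx20 differed by 0.01 and its sign turned under upper quartile and total scaling. Whether the 2 time changes differed between hosts was tested as an interaction, and 0 members and 0 genes (0%) were called by limma, with 0 members at an unadjusted p under 0.05. The interaction for Tbx15 was 0.72 (SE 0.38, limma adjusted p = 0.632).

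Skeletal muscle RNA was set beside Tbx15, library by library. The sum of 8 skeletal muscle genes (Ckm, Acta1, Myh4, Myh1, Tnnt3, Actn3, Mylpf and Pvalb, all 8 tested) was 8744, 375 and 9020 normalized counts in the tumors labelled RAG1-/- at day 13 and 81.2, 44.7 and 55.2 at day 23. In wild-type tumors it was 754, 48.6 and 469 at day 23 and 42.0, 1328 and 1268 at day 46. In the same order of wild-type tumors, Tbx15 had 551, 286 and 318 at day 23 and 323, 243 and 392 at day 46. The muscle sum was 44.5 and 58.7 in MC38 cells, where Tbx15 had 299 and 239, and 100981 and 148369 in skin. The day 13 tumor with the low muscle sum had 449 for Tbx15, between the other two. Of the 8 muscle genes 0 were called by limma between the time points of either host, where 0% of all genes were called. This count therefore cannot show whether muscle RNA changed. The part of muscle RNA in the Tbx15 levels of the tumors was not tested.

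**Figure D2:**
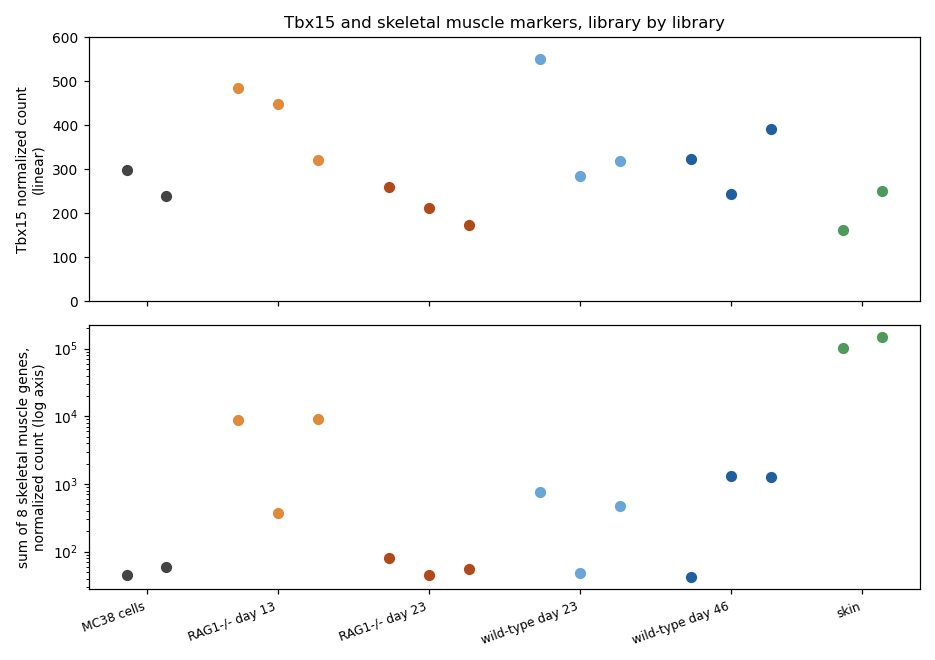
Normalized count of Tbx15 (upper panel, linear axis) and the summed normalized count of 8 skeletal muscle genes (lower panel, log axis) in each of the 16 libraries, in the same order. The 3 tumors labelled RAG1-/- at day 13 are above the 3 of day 23 for Tbx15, while 2 of the 3 stand at 8744 and 9020 for the muscle sum and the other at 375.

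Against the cultured MC38 cells, Tbx20 and Foxf1 are described without a test because their MC38 levels chose the list. The mean of the wild-type tumors was 74.7% of the MC38 mean for Tbx20 and 94.9% for Foxf1, and that of the tumors labelled RAG1-/- was 78.1% and 107%. The other 4 members with reads were tested in a fit of 14708 genes. For tumors labelled RAG1-/- 0 of the 4 were called by limma, with none at an unadjusted p under 0.05, where 23.3% of all genes were called. For wild-type tumors it was also 0 of 4, with none at an unadjusted p under 0.05, where 27.9% of all genes were called. edgeR and DESeq2 called 0 in both. The 2 comparisons share the MC38 libraries.

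The largest difference of the 4 was that of Foxl1, 77.0 ± 42.1 (SD, n = 6) in wild-type tumors against a mean of 120 in MC38 cells, a log2 difference of -0.78 (SE 0.46, 95% interval -1.76 to 0.19, limma adjusted p = 0.228). In tumors labelled RAG1-/- it was -0.46 (interval -1.43 to 0.51). Foxf2 differed by -0.21 (-1.12 to 0.69) in wild-type tumors and 0.29 (-0.61 to 1.19) in those labelled RAG1-/-. Tbx15 differed by 0.35 (-0.20 to 0.89) and 0.15 (-0.40 to 0.69). Tbx18 had the narrowest intervals, at -0.04 (-0.49 to 0.41) and -0.17 (-0.62 to 0.28), and its sign against wild-type tumors turned under upper quartile scaling.

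**Figure D3:**
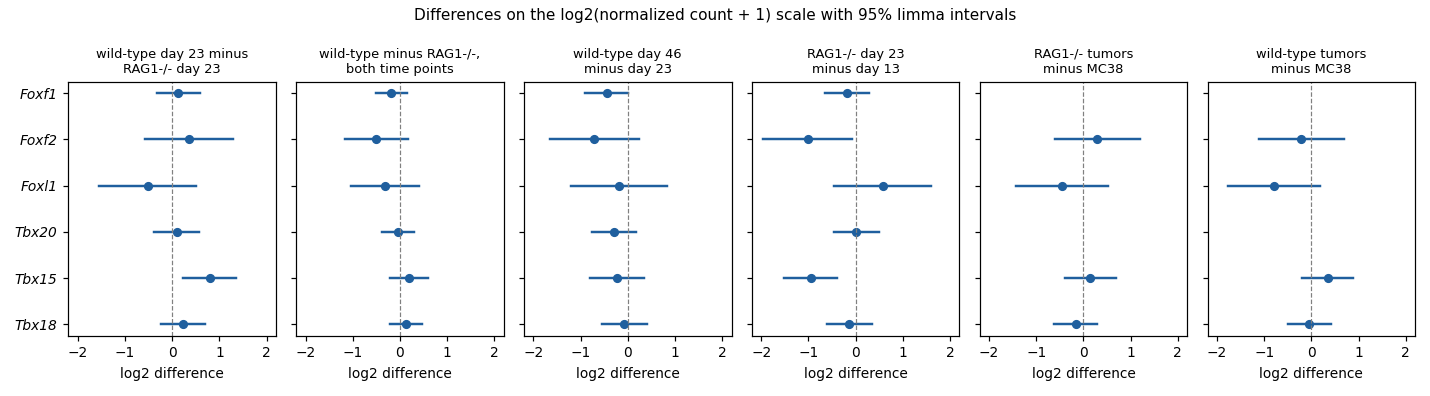
Log2 differences (points, on the log2(normalized count + 1) scale) with 95% limma intervals (lines) for the 6 members above the filter in 4 comparisons among tumors and 2 against MC38 cells, where Foxf1 and Tbx20 are left out because their MC38 levels chose the list. The intervals of Tbx15 at day 23 between hosts and of Tbx15 and Foxf2 between day 13 and day 23 lie to one side of 0, and none passed the adjusted test.

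Against skin, 5 of the 8 members that the list's choice left for testing passed the filter in a fit of 16259 genes. Of these, Foxl1 and Foxf2 passed through the tumors alone and Gata6 through skin alone, so their differences are a description. Set against the 7 reads of Foxl1 in skin, the wild-type mean was 16.8-fold higher, with a counting interval from 8.18-fold to 41.9-fold. For Foxf2, with 2 reads in skin, it was 23.4-fold higher, with a counting interval from 6.49-fold to 194-fold. Gata6 was 136-fold higher in skin than in wild-type tumors. These folds pool the 2 skin libraries, and all skin reads of Foxl1 and Foxf2 were in replicate 2. The counting intervals cover the skin reads alone, not the spread between skin samples or between tumors.

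The other 2, Tbx18 and Tbx15, were both called higher in wild-type tumors, where 57% of all genes were called, 22.8% higher and 34.2% lower. Tbx18 was higher by 1.32 on the log2 scale (SE 0.23, limma adjusted p = 0.000192), and its groups did not overlap, as for 58% of all genes. It was higher by 1.52 without skin replicate 2 and by 1.13 without skin replicate 1, and its adjusted p ran from 1.59e-06 to 0.00543 over 19 alternatives. Tbx15 was higher by 0.75 (SE 0.28, limma adjusted p = 0.0351), and its groups overlapped. Without skin replicate 1 its difference was 0.44 and its limma adjusted p 0.369. Over its 19 alternatives the adjusted p of Tbx15 ran from 0.00495 to 0.369, with 13 of them under the threshold. Skin held much RNA of other cells. The 8 skeletal muscle genes summed to 100981 and 148369 normalized counts in skin against 42.0 to 1328 in wild-type tumors, and the 8 epidermis genes to 281331 and 286493 against 235 to 1688. The part of these cell types in the skin differences was not tested.

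**Figure D4:**
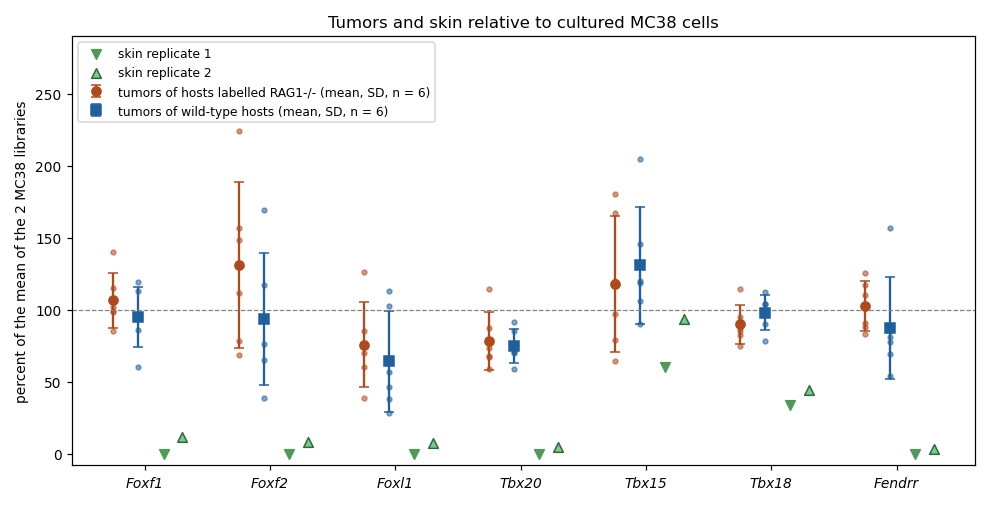
Level of 6 members and Fendrr as a percent of the mean of the 2 MC38 libraries, for tumors of each host (small points are libraries, large points and bars are mean and SD, n = 6) and for each skin library (triangles). Foxf1, Foxf2, Foxl1, Tbx20 and Fendrr are at 0 in skin replicate 1 and at 2.88% to 11.5% in skin replicate 2, while Tbx15 is at 60.3% and 93.4%.

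Several neighbours of Foxf1 were also read in MC38 cells. Fendrr had 127 and 138 normalized counts in MC38 cells, 71.6 to 208 in the tumors and 0 and 3.82 in skin. Foxc2, a forkhead gene of mesenchyme and lymphatic vessels 28027 bases away, had 199 and 214 in MC38 cells against 29.5 and 29.3 in skin. Mthfsd (3484 bases away) was read at 216 and 236 in MC38 cells and 100 and 108 in skin. Of the 8 annotated genes of the table within 100 kb of Foxf1, 4 had an MC38 mean above 5, and Foxl1 was one of them. Around Foxf2 it was 0 of 6. Among all 46882 genes, 13181 were above 5 in MC38 cells. The neighbours counted include genes of microRNAs, Gm27530 near Foxf1 and Gm27516 near Foxf2, which had no read in MC38 cells. Whether the share around Foxf1 or Foxf2 differs from that over all genes was not tested. Foxq1, a forkhead gene of the hair shaft 64840 bases from Foxf2, had 0.856 and 0.978 in MC38 cells and 1541 and 983 in skin.

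Fendrr had 3 reads in skin, all in replicate 2, and passed the filter through the tumors alone, so its difference from skin is a description. The wild-type mean was 59.1-fold above the pooled skin libraries, with a counting interval, of the skin reads alone, from 20.2-fold to 287-fold. Between the hosts at day 23 it had 108, 71.6 and 103 in wild-type tumors and 166, 111 and 156 in those labelled RAG1-/-, without overlap, while Foxf1 next to it had 337, 283 and 355 against 296, 343 and 253. Of all genes, 16.1% had groups that did not overlap in this comparison, and Fendrr was at the lowest exact permutation p possible, 0.1. The log2 difference of Fendrr was -0.61 (SE 0.30, limma adjusted p = 0.483), and that of Foxf1 was 0.13 (SE 0.22, limma adjusted p = 0.868). The difference between the 2 genes was not tested.

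**Figure D5:**
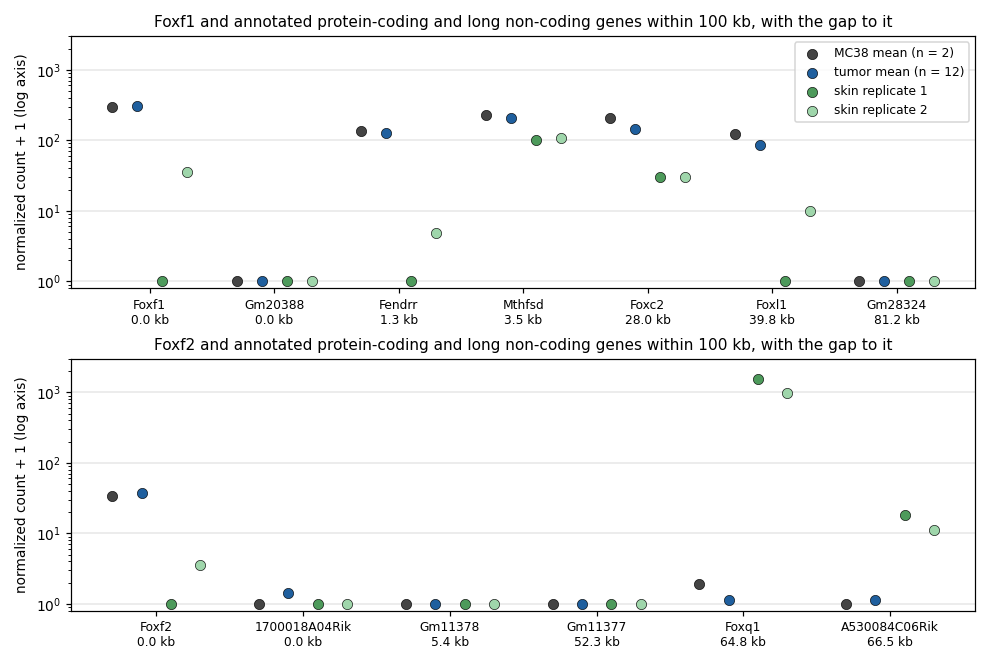
Normalized count + 1 (log axis) of Foxf1 (upper panel) and Foxf2 (lower panel) and of the annotated protein-coding and long non-coding genes within 100 kb of each, ordered by the gap between gene bodies in kb. Points give the MC38 mean, the mean of 12 tumors and the 2 skin libraries. Around Foxf1, Fendrr, Mthfsd, Foxc2 and Foxl1 are read in MC38 cells, and around Foxf2 the highest MC38 mean is 0.917, while Foxq1 reaches 1541 and 983 in skin.

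Markers of colon epithelium were at or near 0 in MC38 cells. Of 12 gut epithelium genes 11 were under 5 normalized counts in both MC38 libraries, and the 12 summed to 12.8 and 20.5. Cdx2, the intestinal master factor, and Muc2 and Krt18 had no read, Epcam had 0 and 3.91, and Cdh1 had at most 0.978. Mesenchymal genes were read in part. Of 16 gut mesenchyme signals 7 were above 5 normalized counts in both MC38 libraries, and 9 were under 5 in both, of which 7 had no read (Rspo1, Rspo3, Sfrp1, Sfrp2, Wnt2b, Wnt4 and Dll1). Of 10 dermal fibroblast genes 7 were above 5 in both and 2 under 5 in both. Grem1, a secreted inhibitor of BMP proteins, was the highest of the gut mesenchyme signals at 3735 and 4533. Pdgfra, a receptor of fibroblasts, had 1220 and 1250 normalized counts, the mesodermal factor Twist1 had 898 and 717, and Twist2 had 1398 and 1244, though Lum, a dermal fibroblast proteoglycan, had no read and Col1a1 had 0.856 and 28.4. Of the 7 cardiac muscle genes 4 (Myl7, Nppa, Ryr2 and Actn2) had no read in MC38 cells. Tnnt2, the cardiac form of troponin T, was read at 56.5 and 72.3 in MC38 cells, 682 to 2619 in the tumors and 48.2 and 40.8 in skin. Nppb had 8.56 and 0.978 in MC38 cells, and Myh6 had 1.71 and 0.

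Of the hedgehog pathway, known to act upstream of Foxf1 and Foxl1 in gut mesenchyme, the receiving side was read in MC38 cells. The ligand Shh had no read in any MC38 or tumor library and had 102 and 8.92 in skin. The ligand Dhh was read in all 14 of these libraries, at 14.5 and 11.7 in MC38 cells and 4.75 to 40.6 in the tumors, and had 5.36 and 8.92 in skin. The ligand Ihh had 1 read in MC38 cells and at most 6.04 normalized counts in a tumor. The receptor Ptch1 had 327 and 394 in MC38 cells and 174 to 497 in the tumors, the transducer Smo 184 and 162 in MC38 cells, and the effectors Gli1 and Gli3 52.2 and 46.9, and 328 and 375. Of 15 pathway genes 11 passed the filter in the tumors, and 0 were called in any of the 4 comparisons among tumors. The shares of all genes called were 0.278% between hosts at day 23, 0.712% over both time points and 0% between the days of either host. With shares this low, 0 calls do not show that the pathway was steady. Against MC38 cells 1 was called higher and 2 lower in tumors labelled RAG1-/-, where 23.3% of all genes were called, and 1 higher and 0 lower in wild-type tumors, where it was 27.9%. The median log2 difference was -0.14 and -0.11, beside 0.06 and 0.05 over all genes. The gene called higher was the coreceptor Boc in both, which had 3 reads in MC38 cells (1.71 and 0.978 normalized counts) and 10.01 to 88.7 in the tumors and passed the filter through the tumors alone, so its difference is a description. Against skin 1 was called higher (Disp1) and 8 lower of 14 tested in wild-type tumors, where 57% of all genes were called, and 3 of these 9 had a group mean under 5 in the tumors. The median log2 difference was -0.95 beside -0.18 over all genes.

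A further list of 33 genes held other factors of the FOX, TBX, GATA, NKX and HAND families, the cofactors Zfpm1 and Zfpm2, the homeobox genes Isl1 and Barx2, and the non-coding RNA Fendrr. Of these 18 passed the filter in the tumors, and 0 were called in the 4 comparisons among tumors, where 0% to 0.712% of all genes were called. Over both time points Tbx1 averaged 98.2 in wild-type tumors and 38.6 in those labelled RAG1-/-. Its log2 difference was 1.53 (SE 0.34, limma adjusted p = 0.0529), in a comparison that mixes host with tumor age. With shares this low, 0 calls do not show that the genes of this list were steady. Against MC38 cells 4 were called higher and 3 lower in tumors labelled RAG1-/-, beside 23.3% of all genes, and 3 higher and 4 lower in wild-type tumors, beside 27.9%. The median log2 difference was -0.10 and -0.19. In wild-type tumors Foxc1 was lower by 0.98 (log2 difference -0.98, SE 0.21, limma adjusted p = 0.00156). Foxs1, a forkhead gene of pericytes, had 1 read in MC38 cells and 9.16 to 85.6 normalized counts in the tumors, and as it passed the filter through the tumors alone this is a description. Tbx2, called higher in tumors labelled RAG1-/- only, had 0.856 and 3.91 in MC38 cells and 5.72 to 63.2 in those tumors. It too passed the filter through the tumors alone, so its difference is a description. Against skin 7 were called higher and 7 lower of 20 tested, beside 57% of all genes, and 4 of these 14, Fendrr among them, had a group mean under 5. Zfpm2, a cofactor of GATA factors, had 869 and 911 in MC38 cells and 28.1 and 148 in skin, and was higher in wild-type tumors than in skin by 3.41 (SE 0.45). Gata2 had 222 and 211 in MC38 cells and 48.2 and 45.9 in skin. Gata3, a factor of hair follicle and epidermis, had 135 and 115 in MC38 cells against 5168 and 6057 in skin. Hand1, Nkx2-6 and Nkx3-2 had no read in any library.

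Over all 16 libraries the genes with a pattern nearest to that of Tbx20 included Tuba3a, Gm13261, Foxf1 and Hoxa11os, with Pearson r of log2(normalized count + 1) from 0.988 to 0.995 among 13181 genes. That of Foxf1 was nearest to Tuba3a, Gm13261, Gm13154, Tbx20 and Gm11033 (0.987 to 0.993). The genes named here for Tbx20 and Foxf1 had no read in skin replicate 1. Foxf2 was nearest to Ankrd1 (0.962), Foxl1 to Mlkl (0.982), Tbx18 to Kcnab2 (0.962) and Tbx15 to Bak1 (0.866). Within the 12 tumors, the r between Tbx20 and Foxf1 was 0.40, and over the 15 pairs of the 6 members it ran from -0.38 (Foxf2 and Foxl1) to 0.52 (Foxf2 and Tbx20), with a median of 0.17. The points share depth and size factors, and Tbx20 and Foxf1 were chosen by their levels in MC38 cells and skin. Their r over all 16 libraries follows in part from that choice, so these values are a description.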

How the data were processed

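The libraries were QuantSeq 3′ mRNA libraries sequenced on an Ion Proton. The authors trimmed reads with Cutadapt and Trimmomatic, aligned them to mm10 with STAR and then Bowtie2, kept primary alignments, removed ribosomal RNA reads, counted reads with HTSeq-count and divided the counts by DESeq2 size factors. The deposited signal is this normalized count. Tool versions, annotation and strand setting are not given in the sources used here. In all 16 libraries 100% of values were whole multiples of 1 read (tolerance 0.01), so reads were recovered. Libraries held 5589151 to 26134241 reads. Without a known strand setting, reads of a gene and an antisense partner cannot be told apart.

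The main test was limma 3.58.1 (R 4.3.3, trend) on log2(normalized count + 1), genes with a mean of at least 5, two-sided, Benjamini-Hochberg threshold 0.05, with no replicate block. Single genes had two-sided exact permutation tests. Alternatives were 0.1 or 5 as the pseudocount, testing every gene, a filter at 20, upper quartile or total scaling, no trend, the replicate block, only the groups compared, each replicate left out, and edgeR 4.0.16 and DESeq2 1.42.0 on the recovered reads. The tests were checked on simulated data. The 10 members and all gene lists were chosen with earlier results of these data known. Genes named were the members, genes of those lists, neighbours within 100 kb, the 5 genes most alike to each member with a mean of at least 20 in tumors, and Rag1, and some genes are not reported here. The table of tumors given anti-PD-L1 or IgG2b was left out, because its 6 columns match no sample label. Gene positions are those of GENCODE (GRCm38).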

Additional observations from a re-analysis of the deposited data

Results flagged for a closer look

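The highest of the 6 wild-type tumors for Fendrr, a day 46 tumor at 208 normalized counts, stood apart from the other 5, which lay between 71.6 and 113, by a larger share of the group's range than Dixon's 95% critical value allows. The 14 groups examined were 6 tumors of each host for the 6 members above the filter and Fendrr, and chance gives about 1 such gap in 20 groups. None of the members was set apart in this way.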

How the results depend on the processing

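The count of members called did not move in the 7 comparisons and the interaction under any alternative, except that against skin, where 3 of the 5 passed the filter through 1 group alone, it was 4 in place of 5 where Tbx15 was lost (no filter, no trend, only the groups compared, and without skin replicate 1, wild-type day 23 replicate 1 or day 46 replicate 3). Of 787 differences of single members under alternatives, 5 turned direction under another setting and 23 with a replicate left out, none of them called in either direction. Under upper quartile scaling Tbx20 between hosts was 0.016, Tbx18 between day 46 and day 23 was 0.027, Tbx20 between day 23 and day 13 was -0.050 (-0.10 under total scaling), and Tbx18 of wild-type tumors against MC38 cells was 0.12 on the log2 scale. Upper quartile scaling moved the median of all genes by 0.21 against skin and 0.16 for wild-type tumors against MC38 cells, and total scaling by 0.41 against skin.

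With 1 replicate left out, log2 differences that turned direction ran as follows. They ran from -0.10 to 0.39 for Tbx20 between hosts at day 23. They ran from -0.14 to 0.10 for Tbx20 between hosts over both time points. They ran from -0.42 to 0.055 for Tbx15 and from -0.72 to 0.26 for Foxl1 and from -0.15 to 0.062 for Tbx18 between day 46 and day 23. They ran from -0.28 to 0.21 for Tbx20 and from -0.29 to 0.011 for Tbx18 between day 23 and day 13. They ran from -0.016 to 0.31 for Tbx15 in tumors labelled RAG1-/- against MC38 cells. They ran from -0.090 to 0.028 for Tbx18 and from -0.45 to 0.017 for Foxf2 in wild-type tumors against MC38 cells. They ran from -0.058 to 0.67 for Foxf2 and from -0.088 to 0.22 for Tbx18 in the interaction.

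Calls over all genes moved more. DESeq2 called 239 genes between hosts at day 23 (limma 41, and 15 without the trend), 283 over both time points (105, and 48 without the trend), 41 between day 46 and day 23 (0), 206 between day 23 and day 13 (0) and 58 in the interaction (0). Leaving out 1 tumor gave 5 to 60, 65 to 171, 0 to 7, 0 to 37 and 0 to 5. Leaving out MC38 replicate 1 or 2 gave 1960 or 1832 in place of 3428, and 2294 or 2172 in place of 4100.

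The replicate numbers were not taken to pair the samples. The deviations of 18 same-numbered pairs of tumors correlated at -0.24 to 0.25, with 4 over 0.1. Of these, 3 were all the pairs of wild-type day 46 and RAG1-/- day 23 tumors (0.105, 0.208 and 0.135), while for no other 2 groups were all 3 over 0.1. With the replicate block 0 members were called in the comparisons among tumors and against MC38 cells and 5 against skin (41 and 39 genes at day 23 without and with it). Depth limits Gata4, Barx1, Nkx2-3 and, outside skin, Gata6.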
